A study of Mus musculus with 6 samples.

Results

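The Rab GTPases are the largest branch of the Ras superfamily and act as switches of membrane traffic. Members were taken as the genes whose single symbol in the array platform's annotation is Rab followed by a number and at most a letter and a further digit, a rule that uses no measured value. It found 59 genes with 132 probe sets among 18193 genes named by 1 symbol. Where a gene had several probe sets, the brightest on average over the 6 arrays stood for it, and all 59 entered the comparison because no filter on dim probe sets was applied.

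Expression was measured by microarray in haematopoietic stem cells (HSCs) from the bone marrow of SCL-tTA H2B-GFP mice. In this line the tTA-S2 transactivator is produced from the scl locus and drives histone H2B joined to green fluorescent protein (GFP) until doxycycline turns the system off. Both groups of 3 samples received doxycycline for 170 days and passed 1 gate, negative for CD34, lineage markers and CD48 and positive for Sca1, cKit and CD150. Label-retaining cells (LRC) were GFP-positive and non-LRC were GFP-negative. The scl locus limits the label to early stem and progenitor cells, so a GFP-negative cell may have lost the label by dividing or may never have had it. Strain background, age and the number of mice per sample are not given in the sources used here, so p-values measure the spread between these samples.

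A Rab protein is carried to its membrane by an escort protein or a GDP dissociation inhibitor (GDI), after geranylgeranyl groups have been attached to its C-terminus. Exchange factors load it with GTP, effectors bind that form to tether or move vesicles, and GTPase-activating proteins return it to the GDP form. Different members mark different compartments: the endoplasmic reticulum and Golgi, early, recycling and late endosomes, and secretory granules. In stem cells these routes carry receptors and adhesion molecules to and from the surface and deliver material to lysosomes.

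The values are log2 expression values after RMA (background correction, quantile normalization and summary of the probes). Array medians lay between 4.33 and 4.39 and pairwise correlations across probe sets between 0.901 and 0.970. LRC replicate 1 stood somewhat apart, with no correlation above 0.919 and the largest 3′ to 5′ difference of the Gapdh control probe sets, 4.16 against 2.72 to 3.42 on the other arrays. Hybridization controls, which are spiked in after labelling, were at 11.24 and 11.02 on LRC replicates 1 and 3 and at 10.58 to 10.70 on the others. The poly-A control probe sets were at 11.69, 10.27 and 10.89 on LRC replicates 1 to 3. On non-LRC replicates 1 to 3 they were at 10.86, 10.22 and 9.81. They were not used as a covariate. All 10 measured HSC markers, among them Procr, Mecom and Kit, lay above the array median on all 6 arrays. Of the markers of other cells, those above the median on all arrays were 2 of 7 for B cells (Cd79b and Vpreb1), 0 of 6 for T and NK cells, 2 of 7 for endothelium (Egfl7 and Kdr), 5 of 11 for granulocytes and monocytes, 2 of 8 for erythroid cells and 5 of 9 for megakaryocytes. On none were 4, 4, 2, 0, 3 and 3 of these, among them Cd79a, Cd3e and Cdh5. Non-LRC replicate 1 had the highest means of the erythroid (5.87 against 4.51 to 5.07), granulocyte and monocyte (6.63 against 5.40 to 6.18) and T and NK lists (3.77 against 3.22 to 3.64). LRC replicate 1 had the highest B cell mean (4.74 against 4.17 to 4.31). Non-LRC replicate 3 had the highest mean of the megakaryocyte list (5.62 against 4.84 to 5.01). A list of 11 cycling markers had array means of 6.09 to 7.34 in LRC and 7.48 to 8.02 in non-LRC. The LRC mean was the lower one for 10 of the 11. The part of these array, marker and cell cycle differences in the values below was not tested, other than by the alternatives given with them.

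Most Rab genes lay above the array median in these HSCs, though presence of a transcript was not tested. Of the 59, 39 lay above the array median on all 6 arrays (66.1%, against 49.1% of all genes), 15 on some arrays and 5 on none (8.47%, against 31.9% of all genes). These 5 were Rab39, Rab9b, Rab33a, Rab30 and Rab26. The 8 with the highest means were Rab2a, Rab1a, Rab10, Rab37, Rab14, Rab7, Rab21 and Rab8b, with means of 10.13 for Rab2a down to 9.02 for Rab8b. Probe sets differ in how well they bind their transcript, so these values place each gene above or below the array median and give no order of transcript amounts. In such bulk samples fewer cells of a type and less RNA per cell cannot be told apart.

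**Figure D1:**
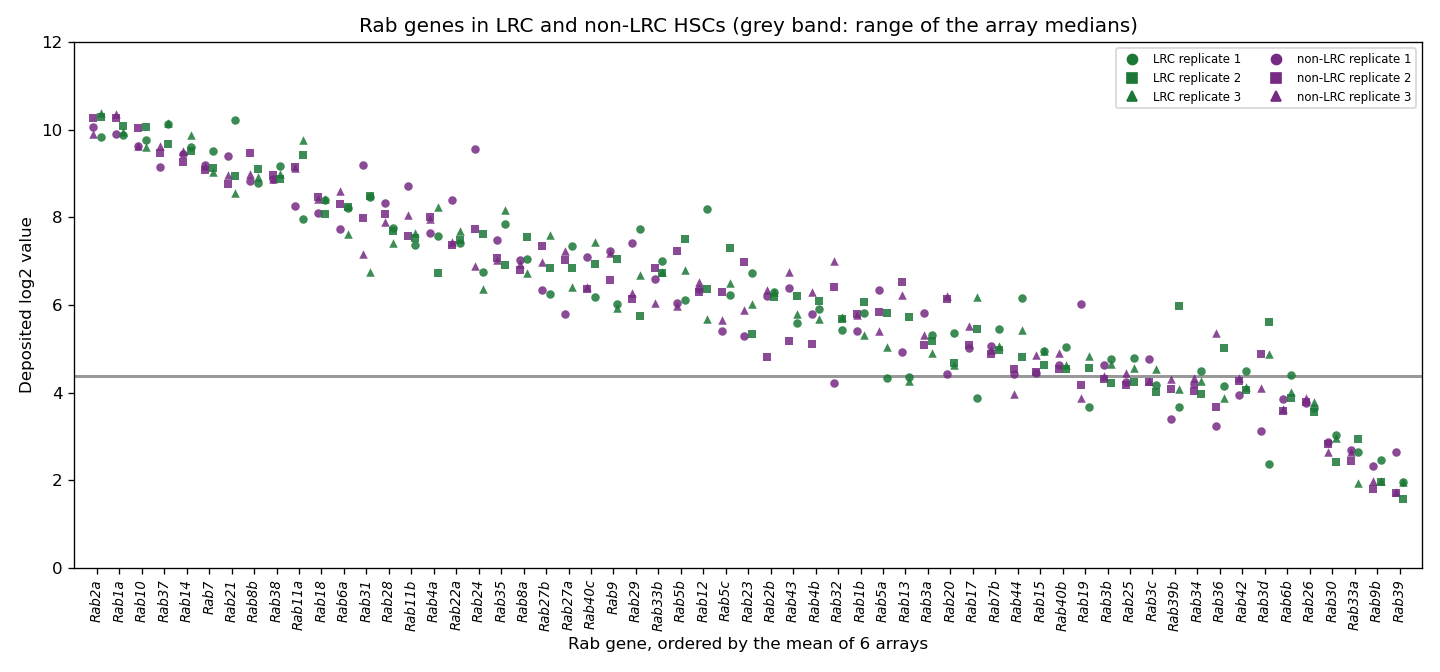
Deposited log2 value of each of the 59 Rab genes (y axis) on every array, with genes ordered by their mean over 6 arrays (x axis), LRC in green and non-LRC in purple; the grey band is the range of the array medians, 4.33 to 4.39. For most genes the green and purple points lie among each other, and the rightmost 5 genes lie below the medians on all arrays.

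The mean level of the Rab family overlapped between LRC and non-LRC HSCs. The mean over the 59 genes was 6.24, 6.31 and 6.21 in LRC replicates 1 to 3 and 6.23, 6.23 and 6.28 in non-LRC replicates 1 to 3. LRC replicate 2 was the highest and LRC replicate 3 the lowest, so the groups overlapped, with means of 6.25 ± 0.05 and 6.24 ± 0.03 (SD, n = 3 each). A higher mean in LRC was found for 35 of 59 genes (59.3%, against 54.9% of all genes) and a lower mean for 24. The median difference, LRC minus non-LRC, was 0.05, beside 0.03 over all genes. It was -0.07 without LRC replicate 1, with 27 genes higher, and -0.04 with the level of the hybridization controls as a covariate, with 26 genes higher. Of the 39 Rab genes above the array median on all 6 arrays, 24 had a higher mean in LRC (61.5%, against 48.9% of all such genes). Their median difference was 0.080, beside -0.009 over all such genes. Whether these shares differ was not tested.

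No Rab gene was called. With limma and Benjamini-Hochberg adjustment over 45037 probe sets, 0 of 59 passed an adjusted p of 0.05, the background being 0% of all probe sets, and the smallest adjusted p of a Rab gene was 0.998. Rab44 and Rab37, 2 of the 59, had an unadjusted p under 0.05, against 3.75% of all genes. That count was 6 without LRC replicate 2, 4 without non-LRC replicate 1, 3 without non-LRC replicate 2, and 1 without LRC replicate 3 or without non-LRC replicate 3. Groups did not overlap for 3 genes higher in LRC (Rab44, Rab37 and Rab6b), where all genes gave 4.71%, and for 1 lower (Rab28), where all genes gave 3.62%. These shares are near the background. Of 38 genes with several probe sets, all further probe sets had the sign of the representing one for 13, some for 10 and none for 15. Only 3 differences reached 2-fold, those of Rab44, Rab24 and Rab13. The 95% confidence interval of the difference stayed within a log2 change of 1 in either direction for 30 of 59 genes (50.8%, against 56.3% of all genes), so a 2-fold change lies outside the interval for these genes and inside it, in at least 1 direction, for the others.

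**Figure D2:**
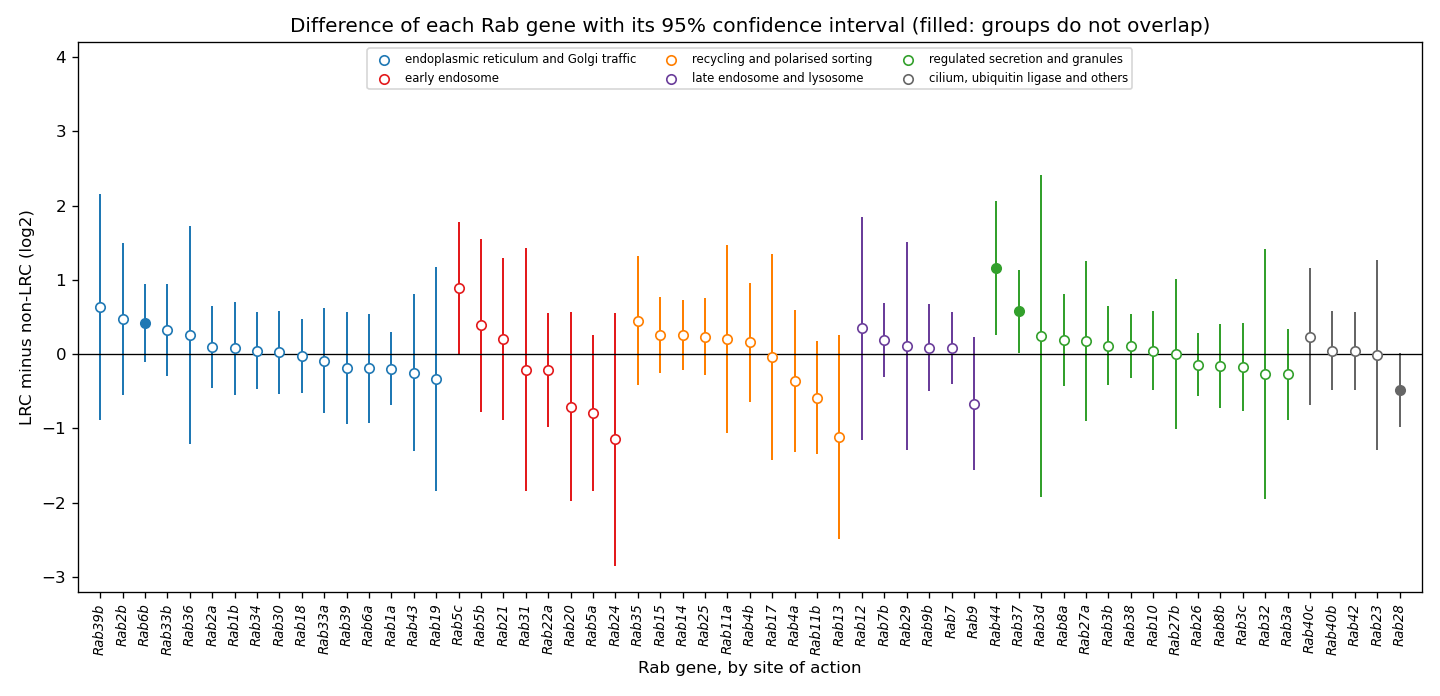
Difference of each Rab gene, LRC minus non-LRC on the log2 scale (y axis), with limma's 95% confidence interval as a line, and genes arranged by site of action (x axis, colours). Filled points mark the 4 genes whose groups do not overlap; the early endosome genes spread from 0.89 for Rab5c to -1.15 for Rab24.

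Of 16 members of endoplasmic reticulum and Golgi traffic, 9 had a higher and 7 a lower mean in LRC, with a median difference of 0.04 and a range of -0.34 to 0.63. Rab1a, which directs vesicles from the endoplasmic reticulum to the Golgi, was at 9.89, 10.09 and 9.96 in LRC and at 9.90, 10.27 and 10.35 in non-LRC. LRC replicates 2 and 3 lay within the non-LRC range, and the difference was -0.20 (SE 0.20). Both further Rab1a probe sets had differences above 0, of 0.32 and 0.89. Rab2a, which acts at the Golgi and in retrograde traffic, was at 10.17 ± 0.30 and 10.08 ± 0.19 in LRC and non-LRC (SD, n = 3 each). Its difference was 0.09, with a 95% interval of -0.46 to 0.65. Rab18, found on lipid droplets and the endoplasmic reticulum, differed by -0.03 (interval -0.53 to 0.48).

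Rab6b, a Golgi Rab best known from neurons, had separated groups at a low level. It was at 4.41, 3.87 and 4.01 in LRC and at 3.85, 3.58 and 3.61 in non-LRC. Replicate 1 of LRC was the 1 value above the array median, and LRC replicate 2 lay close to non-LRC replicate 1. The difference was 0.42 (SE 0.22, adjusted p = 0.998 by limma), or 0.14 with the hybridization control covariate, and the 3 further Rab6b probe sets also had higher means in LRC. The ubiquitous paralog Rab6a, which acts in retrograde traffic through the Golgi, differed by -0.19 (SE 0.30). Rab33b, a Golgi Rab that binds the autophagy protein ATG16L1, differed by 0.33 (SE 0.26) and Rab39b by 0.63 (SE 0.63). The remaining members, Rab1b, Rab2b, Rab19, Rab30, Rab33a, Rab34, Rab36, Rab39 and Rab43, differed by -0.34 to 0.47, and all of their groups overlapped.

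Early endosome Rabs showed the widest spread, with differences of both signs. Of 8 members 3 had a higher and 5 a lower mean in LRC, and the median within-group SD was 0.68, against 0.42 for all Rab genes. The 3 Rab5 paralogs, which drive fusion of early endosomes, had mean differences of both signs. Rab5c was at 6.22, 7.30 and 6.50 in LRC and at 5.39, 6.30 and 5.66 in non-LRC. The highest non-LRC value, that of replicate 2, lay just above the lowest LRC value, that of replicate 1. Its difference was 0.89 (SE 0.37, interval -0.01 to 1.78) and did not pass. It was 0.58 without LRC replicate 2 and 1.48 with the hybridization control covariate.

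Rab5a went the other way by its mean. It was at 4.33, 5.82 and 5.05 in LRC and at 6.33, 5.83 and 5.41 in non-LRC. LRC replicate 2 lay within the non-LRC range and the other 2 LRC values below it. The difference was -0.79 (SE 0.43, interval -1.84 to 0.26), or -0.42 without LRC replicate 1, and -0.04 when LRC replicate 2 alone stood for LRC. Rab5b differed by 0.39 (SE 0.48), and the second Rab5b probe set by 0.00. Whether the paralogs differ from each other in their response was not tested.

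Rab24, an atypical member linked to autophagy, was at 6.75, 7.61 and 6.37 in LRC and at 9.55, 7.73 and 6.90 in non-LRC. The high value of non-LRC replicate 1 set much of the mean, and the groups overlapped. On that array Car1, an erythroid marker, was at 7.34 against 3.08 to 3.98 elsewhere, and S100a8, of granulocytes, at 8.27 against 4.27 to 5.74. Ermap and Klf1 of the erythroid list, and Elane, Ms4a3, Prtn3, Cd14 and S100a9 of the granulocyte and monocyte list, were also highest there. Car2, Epor, Hba-a1, Alas2 and Slc4a1, and Mpo, Ctsg, Lyz2, Csf1r and Fcgr3, were highest on other arrays. The part of such cells in the Rab24 value was not tested. The difference was -1.15 (SE 0.71), or -0.40 without non-LRC replicate 1, and -1.77 by the second Rab24 probe set. Rab20 differed by -0.71 (SE 0.53). Rab21, which carries integrins into the cell, was at 10.22, 8.96 and 8.57 in LRC and at 9.41, 8.76 and 8.96 in non-LRC, so that its difference of 0.20 (SE 0.45) was -0.28 without LRC replicate 1. Rab22a and Rab31 both differed by -0.21 with overlapping groups. One dimmer Rab22a probe set had separated groups and a difference of -0.79 (SE 0.24, adjusted p of 0.998 by limma), while the remaining Rab22a probe sets differed by 0.82 and 0.54.

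**Figure D3:**
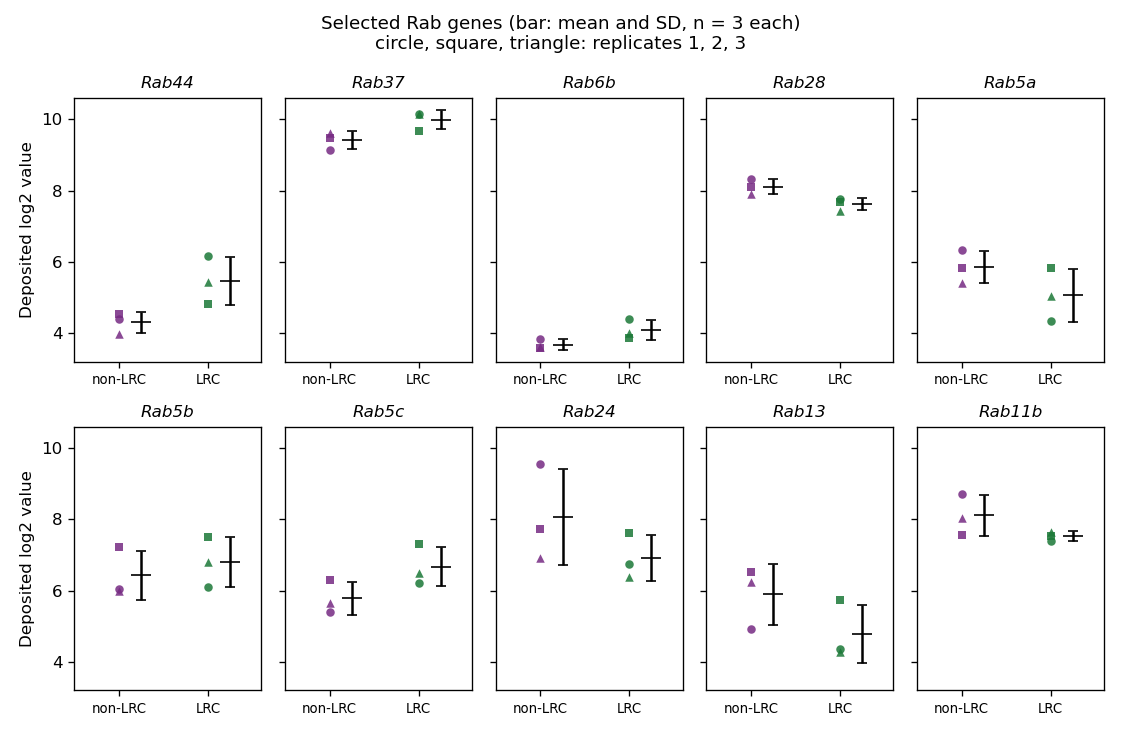
Deposited log2 values (y axis) of 10 Rab genes in non-LRC (purple) and LRC (green), with replicates as symbols and the mean and SD (n = 3 each) as bars. The groups are separated for Rab44, Rab37, Rab6b and Rab28 and overlap for the others, where Rab5a and Rab5c have mean differences of opposite sign.

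Recycling and sorting Rabs had 6 of 10 members at a higher mean in LRC and a median difference of 0.18. Rab11b, a Rab of the recycling endosome, was at 7.38, 7.53 and 7.65 in LRC and at 8.71, 7.57 and 8.05 in non-LRC. Only LRC replicate 3 lay above the lowest non-LRC value, and LRC values were close together. The highest value was that of non-LRC replicate 1. That array had the highest means of the erythroid and the granulocyte and monocyte lists, though not all of their markers were highest there. The part of such cells in the Rab11b value was not tested. The difference was -0.59 (SE 0.32), or -0.29 without non-LRC replicate 1, and -0.13 and -0.14 by the further Rab11b probe sets. Its paralog Rab11a differed by 0.20 (SE 0.52), with the lowest value of the 6 on LRC replicate 1 (7.96) and the highest on LRC replicate 3 (9.76).

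Rab13, known from tight junctions and cell migration, was at 4.35, 5.73 and 4.26 in LRC and at 4.92, 6.53 and 6.23 in non-LRC. LRC replicates 1 and 3 lay below the array median and LRC replicate 2 within the non-LRC range. The difference was -1.11 (SE 0.57). Using the hybridization controls as a covariate gave -0.23, against -0.17 when LRC replicate 2 alone stood for LRC. Rab14, which acts between Golgi and endosomes, differed by 0.26 (SE 0.19), and 3 of 6 further Rab14 probe sets were also higher in LRC. Rab35, a Rab of fast recycling from the surface, was at 7.84, 6.92 and 8.17 in LRC and at 7.49, 7.07 and 7.02 in non-LRC. The mean difference, 0.45 (SE 0.36), came from LRC replicates 1 and 3, and it was -0.11 with the hybridization control covariate. The other members, Rab4a, Rab4b, Rab15, Rab17 and Rab25, differed by -0.36 to 0.26.

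Of 6 late endosome and lysosome Rabs 5 had a higher mean in LRC, with a median difference of 0.10. Rab7, the Rab of late endosomes that directs fusion with lysosomes, was at 9.51, 9.13 and 9.04 in LRC and at 9.19, 9.09 and 9.17 in non-LRC. LRC values lay on both sides of the non-LRC range, the difference was 0.08, and the 95% interval was -0.41 to 0.56. The second, dimmer Rab7 probe set differed by -0.48 (SE 0.33). Rab9, which returns cargo from late endosomes to the Golgi, was at 6.02, 7.06 and 5.93 in LRC and at 7.24, 6.58 and 7.19 in non-LRC. LRC replicate 2 lay within the non-LRC range, and the difference of -0.67 (SE 0.37) became 0.056 when that array alone stood for LRC. Rab7b differed by 0.19 (SE 0.21). Rab12 differed by 0.35 (SE 0.62), carried by LRC replicate 1 at 8.20 against 5.68 to 6.54 on the other 5 arrays, while the second Rab12 probe set had separated groups that were lower in LRC, at -0.74 (SE 0.34). Rab29 and Rab9b differed by 0.11 and 0.09.

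Of 14 secretory and granule Rabs 9 had a higher and 5 a lower mean in LRC, with a median difference of 0.08. They included Rab44 and Rab37, the 2 of all 59 Rab genes with an unadjusted p under 0.05 by limma, against 3.75% of all genes. Rab44, an unusually large member with calcium-binding EF-hand motifs, was at 6.16, 4.81 and 5.43 in LRC and at 4.41, 4.54 and 3.98 in non-LRC. The groups were separated, with LRC replicate 1 highest and non-LRC values near the array median. The difference was 1.16 (SE 0.38), a 2.24-fold higher level in LRC, with an unadjusted p of 0.0199 and an adjusted p of 0.998 by limma. Leaving out LRC replicate 1 gave 0.81 and the hybridization control covariate gave 0.49, and Rab44 has a single probe set.

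Rab37, a granule Rab described in mast cells, was at 10.15, 9.69 and 10.15 in LRC and at 9.15, 9.48 and 9.63 in non-LRC. All LRC values were higher, with LRC replicate 2 just above non-LRC replicate 3. The difference was 0.58 (SE 0.23, unadjusted p of 0.0453 and adjusted p of 0.998 by limma), but the second Rab37 probe set differed by -0.62 (SE 0.63), and the mean of both by -0.023. The representing probe set gave 0.38 with the hybridization control covariate. Markers of mast cells and basophils had array means of 2.92 to 3.70 in LRC and 3.18 to 3.32 in non-LRC. Of these markers 2 of 6 had a higher mean in LRC, and Cpa3, Ms4a2, Fcer1a and Cma1 lay below the array median on all arrays. Mcpt8, a basophil protease, was at 5.32, 3.37 and 5.65 in LRC and at 3.73, 3.78 and 4.18 in non-LRC, highest on the same 2 LRC arrays as Rab37 and Rab44. The part of such cells in the Rab37 and Rab44 values was not tested.

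Among the other secretory Rabs the groups overlapped for all 12. Rab38, which acts with Rab32 in making lysosome-related organelles such as platelet dense granules, was at 9.17, 8.88 and 8.99 in LRC and at 8.87, 8.97 and 8.87 in non-LRC. Its difference was 0.11, with an interval of -0.32 to 0.53. Rab10 and Rab8b, which carry cargo from the Golgi to the plasma membrane, differed by 0.05 (interval -0.48 to 0.58) and -0.16 (interval -0.73 to 0.40), and Rab8a by 0.19. Rab27b, a Rab of platelet granule secretion, was at 6.90 ± 0.68 and 6.89 ± 0.50 (SD, n = 3 each), with an interval of -1.01 to 1.01. Its paralog Rab27a differed by 0.17 (SE 0.44). A dimmer Rab27a probe set was at 5.57, 4.22 and 5.38 in LRC and at 3.78, 3.98 and 3.97 in non-LRC. Its groups were separated, with a difference of 1.15 (SE 0.38) and an adjusted p of 0.998 by limma. All of its non-LRC values and that of LRC replicate 2 lay below the array median. Rab3a differed by -0.27 (SE 0.26) and by 0.38 on its second probe set, and Rab3b, Rab3c, Rab3d, Rab26 and Rab32 by -0.27 to 0.24.

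Among the remaining 5 genes Rab28, known from the cilia of photoreceptors, had separated groups. It was at 7.76, 7.69 and 7.43 in LRC and at 8.33, 8.09 and 7.90 in non-LRC. All LRC values were lower, LRC replicate 1 lying just under non-LRC replicate 3. The difference was -0.48 (SE 0.21, adjusted p = 0.998 by limma), it stayed between -0.58 and -0.37 in all alternatives run, and the second Rab28 probe set differed by -0.65 (SE 0.31). Rab40c, whose SOCS box joins a ubiquitin ligase, differed by 0.24 (SE 0.38) and its paralog Rab40b by 0.05. Rab23, a negative regulator of Hedgehog signalling, was at 6.72, 5.34 and 6.03 in LRC and at 5.29, 6.97 and 5.89 in non-LRC, so that replicates within a group lay much farther apart than the group means, which differed by -0.02. Rab42 differed by 0.04.

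The proteins that load, unload and read Rab GTPases were compared as lists beside the members. Of 125 listed genes 117 were measured. No gene was called, and 8 had an unadjusted p under 0.05 (6.84%, against 3.75% of all genes). Groups were separated for 7 higher (5.98%, against 4.71%) and 7 lower in LRC (5.98%, against 3.62%). A higher mean in LRC was found for 70 and a lower mean for 47, with a median difference of 0.11 beside 0.03 over all genes. Of the 117, 86 lay above the array median on all 6 arrays (73.5%, against 49.1% of all genes), so all genes are a dimmer background. Among all 8927 genes above the median on all arrays, 471 had an unadjusted p under 0.05 by limma. Groups of these 8927 were separated for 409 higher and 451 lower in LRC.

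Exchange factors had 5 of 37 measured genes with separated groups higher in LRC (13.5%, against 4.71% of all genes) and 1 lower (2.7%, against 3.62%). Rabgef1 (Rabex-5), an exchange factor of Rab5, was at 6.68, 6.28 and 6.09 in LRC and at 4.63, 5.35 and 5.50 in non-LRC. All LRC values lay above all non-LRC values, and the difference was 1.19 (SE 0.30, adjusted p = 0.998 by limma), and 2 further Rabgef1 probe sets were also higher in LRC. Trappc6b, a subunit of the TRAPP complexes that act on Rab1, was at 9.76, 9.54 and 9.71 in LRC and at 9.11, 9.06 and 9.18 in non-LRC. Its difference of 0.55 (SE 0.17) did not pass. The others with separated groups higher in LRC were Dennd1b (0.57, SE 0.20), Mon1a (0.39, SE 0.18) and Trappc6a (0.18, SE 0.18). Mon1a lay below the array median on all 6 arrays. Dennd5a, the 1 exchange factor with separated groups lower in LRC, differed by -0.97 (SE 0.48), or -0.41 without LRC replicate 3. Mon1b, a subunit of the Rab7 exchange factor, differed by -0.90 (SE 0.48), or -0.075 with the hybridization control covariate, with overlapping groups and higher LRC means on its 2 further probe sets.

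Among effectors 25 of 36 measured genes had a higher mean in LRC (69.4%, against 54.9% of all genes). Groups were separated for 1 higher (2.78%, against 4.71%) and 1 lower in LRC (2.78%, against 3.62%). Eea1, the tether of early endosomes that binds Rab5, was at 5.34, 6.23 and 6.27 in LRC and at 5.26, 5.09 and 5.0 in non-LRC. The groups were separated, with LRC replicate 1 close to the non-LRC values, and the difference of 0.83 (SE 0.30) did not pass. Rabep1 and Rabep2, which also bind Rab5, differed by -0.03 and 0.05. Mical1 differed by 1.5 (SE 0.80), or 0.56 without non-LRC replicate 1, and Rilpl1 by -0.75 (SE 0.38), or -0.45 without LRC replicate 1, both with overlapping groups. Rilpl2 differed by -1.09 (SE 0.53), with separated groups. It was -0.53 without LRC replicate 1 and -0.33 with the hybridization control covariate.

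The list of GDI, escort and prenylation genes, in which Rabif was placed, had 7 measured genes. Groups were separated for 2 lower in LRC (28.6%, against 3.62% of all genes) and 0 higher (against 4.71%). The 2 lower, Chml and Rabif, had the largest lower differences of these lists among genes with separated groups. Chml, the escort protein REP2, was at 4.77, 3.88 and 3.33 in LRC and at 5.83, 5.13 and 5.65 in non-LRC. LRC replicates 2 and 3 lay below the array median, and the difference was -1.54 (SE 0.41), although a second Chml probe set was higher in LRC and the mean of both was -0.51. Rabif (MSS4), which binds secretory Rabs free of nucleotide, was at 5.02, 6.28 and 5.58 in LRC and at 6.37, 6.85 and 7.28 in non-LRC. Its difference was -1.21 (SE 0.39), and 2 of 3 further Rabif probe sets were also lower in LRC. It was -0.52 with the hybridization control covariate and -0.42 with the probe sets averaged. Neither passed. Gdi2, which withdraws Rab proteins from membranes, was at 10.72 ± 0.20 and 10.74 ± 0.12 (SD, n = 3 each), and Rabggta and Rabac1 differed by 0.19 (SE 0.30) and 0.41 (SE 0.77).

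GTPase-activating proteins had 21 of 37 genes at a higher mean in LRC, and separated groups for 1 higher (2.7%, against 4.71% of all genes) and 3 lower (8.11%, against 3.62%). The 3 lower were Sgsm2 (-0.63, SE 0.21), Rabgap1l (-0.43, SE 0.18) and Rab3gap1 (-0.66, SE 0.27), a subunit of the Rab3 GTPase-activating complex. Rabgap1l was at 9.21, 9.20 and 9.32 in LRC and at 9.84, 9.56 and 9.63 in non-LRC, and 2 of 4 further Rabgap1l probe sets were also lower in LRC, the mean over all being -0.056. Sgsm3, the 1 higher, differed by 0.34 (SE 0.19). Tbc1d22a differed by 0.88 (SE 0.43) with overlapping groups, by 0.16 with the hybridization control covariate and by 0.083 on its probe set without a shared-sequence suffix. None of the 5 passed.

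**Figure D4:**
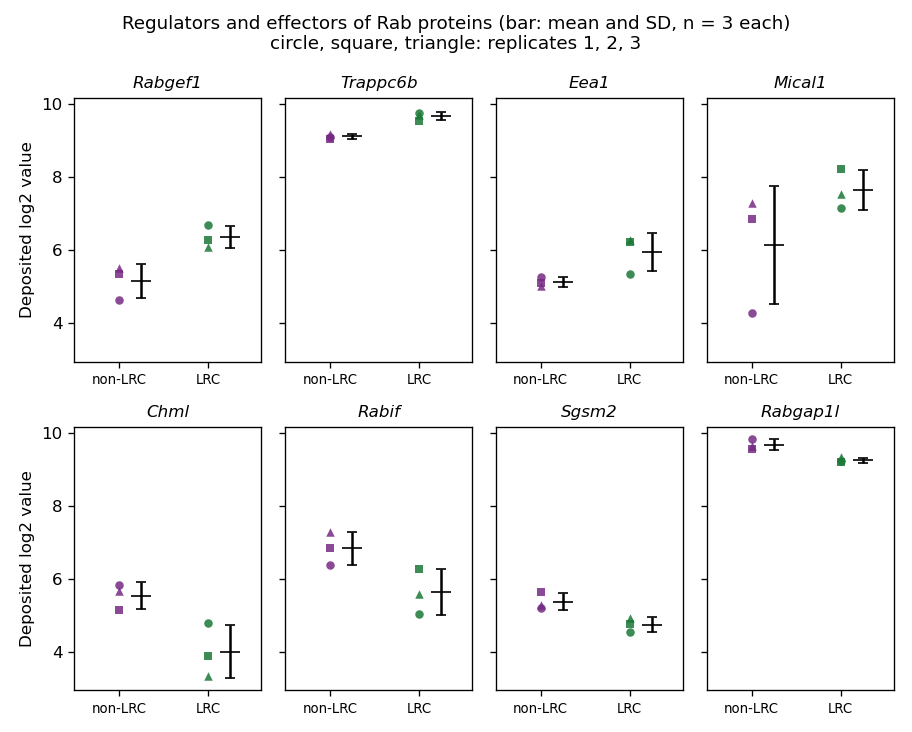
Deposited log2 values (y axis) of 8 regulators and effectors of Rab proteins in non-LRC (purple) and LRC (green), with the mean and SD (n = 3 each) as bars. All groups except those of Mical1 are separated, with Rabgef1, Trappc6b and Eea1 higher and Chml, Rabif, Sgsm2 and Rabgap1l lower in LRC.

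Promoter sequences, from 250 bases before to 50 after the annotated start, were given by RefSeq (GRCm38.p6) for 48 of the 59 genes. They are shown to place the members' start regions beside their values, and 12 short motifs were searched on both strands after the values were known. CACGTG, the E-box core bound by MYC and by the lysosomal regulators of the TFEB family, was found for 6 Rab genes (12.5%, against 8.09% of all genes with a promoter there). The longer TCACGTGA, which contains it, was found for 3 (6.25%, against 1.13%). The GC box CCCCGCCC was found for 19 (39.6%, against 19.6%), CCAAT for 26 (54.2%, against 41.1%) and TATAAA for 4 (8.33%, against 15.7%). AGATAA and CCGGAAGT were each found for 2 (4.17%), where all genes gave 12.7% and 4.31%. TGACGTCA and TGACGCAA were also each found for 2, where all genes gave 2.03% and 0.562%. TGAGTCA was found for 3 (6.25%, against 5.95%), ATGACTCA, which overlaps it, for 2 (against 1.41%), and the NRF1 motif for 0 (against 1.07%).

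The stretches with CACGTG upstream of the start are given 5′ to 3′ on the gene's strand, with CACGTG in capitals and up to 20 bases on each side. They lie at chr10:115315596-115315641 (minus strand, Rab21), chr17:53479119-53479164 and chr17:53478984-53479024 (plus strand, Rab5a), chr8:11478661-11478706 (minus strand, Rab20), chr1:33719658-33719703 (plus strand, Rab23) and chr9:73063898-73063927 (plus strand, Rab27a).
Rab21: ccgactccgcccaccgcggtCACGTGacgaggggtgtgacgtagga
Rab5a, nearer the start: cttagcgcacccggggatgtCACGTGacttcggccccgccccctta
Rab5a, farther from the start: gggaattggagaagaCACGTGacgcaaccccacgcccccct
Rab20: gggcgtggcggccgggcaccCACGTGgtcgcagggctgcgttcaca
Rab23: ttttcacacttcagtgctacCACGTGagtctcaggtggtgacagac
Rab27a: cttgCACGTGctcctccgtctgtctgaacc

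The Rab21 stretch and the nearer Rab5a stretch hold TCACGTGA, 30 and 95 bases before the start counted to the first base of CACGTG. The third gene with that longer motif was Rab24, where CACGTG does not lie wholly before the annotated start. The 6 genes with CACGTG differed by -1.15 (Rab24), -0.79 (Rab5a), -0.71 (Rab20), -0.02 (Rab23), 0.17 (Rab27a) and 0.20 (Rab21), values on both sides of 0. A match describes these letters only, and binding was not measured.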

How the data were processed

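RNA of 3 LRC and 3 non-LRC samples was amplified in 2 rounds and hybridized to 1 array each, per the labels' protocols. The authors deposited log2 values for each probe set, and the submitters' processing notes name RMA. The log base was read from the range of the values, and software and version are not given in the sources used here. Quantile normalization hides a change of total RNA per cell.

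Of 45101 probe sets, 64 controls were left out. Of the rest 34945 had 1 gene symbol, 932 several and 9160 none. LRC minus non-LRC was fitted by limma (version 3.58.1, under R 4.3.3, with eBayes and no covariate) over 45037 probe sets with Benjamini-Hochberg adjustment. Backgrounds of all genes use 1 probe set per gene by the same rule. The fit was also run on simulated data with known differences, as a check of the code. The simulated noise was independent between arrays and held no array effects, so that run says nothing on these arrays. Of the representing probe sets 17 have the suffix _x_at, _s_at or _a_at, of which 5 are _x_at or _s_at and may bind related transcripts.

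Members and lists were chosen with earlier results of these data known. The rule named the 6 members of smallest p in each direction, members with separated groups, the 8 of highest mean, the 1 of smallest p each way in every role list, and up to 2 genes of smallest p each way in every machinery list. It named 37 genes. Rab27a, Rab22a and Rab12 probe sets other than the representing ones were named after their values were seen. Gdi2, Rabep1, Rabep2, Rab3gap1, Dennd1b, Mon1a, Trappc6a and Mcpt8 were also given outside the rule, after they were seen. So were Car1, S100a8, the further markers named with Rab24 and values of other members. Columns of other samples numbered 0.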

Additional observations from a re-analysis of the deposited data

How the results depend on the processing

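No Rab gene passed an adjusted p of 0.05 in any of the 16 alternatives, nor at 0.1, and the smallest adjusted p of the 37 genes followed was 0.56. The count of genes with a higher mean in LRC ran from 26 to 37. The count at an unadjusted p under 0.05 was 4 with array weights, 1 with dim probe sets left out (means below the 40th percentile), and 1 to 6 when single arrays were left out. The count of separated groups was 2 when a gene's probe sets were averaged, 7 to 15 without single arrays and 25 when LRC replicate 2 alone stood for LRC, a setting added after the data were seen. Fewer arrays separate more easily. The median difference ran from -0.072 to 0.088 without single arrays.

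Whether replicate numbers pair the samples is not stated in the sample titles and was not settled here. Deviations from the group means correlated at 0.08, 0.14 and 0.08 between arrays of the same replicate number. Non-LRC replicate 2 and LRC replicate 2 had the highest correlation of any pair of arrays, 0.970. With the replicate block the count at an unadjusted p under 0.05 was 3 and the median difference 0.05.

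Of the 37 genes 21 kept their direction throughout. With the hybridization control covariate Rab21 was at -0.36, Rab35 at -0.11, Rab7 at -0.083, Rab7b at -0.045 and Rab8b at 0.023. With LRC replicate 2 alone Rab35 was at -0.27, Rab21 at -0.086, Rab7 at -0.018, Rab7b at -0.0049, Rab9 at 0.056 and Mon1b at 0.15. With probe sets averaged Rab1a was at 0.34, Rab3a at 0.054, Rab7 at -0.20, Rab40c at -0.096, Rab2a at -0.064, Rab37 at -0.023 and Rab10 at -5.9e-05. With probe sets free of the _x_at, _s_at and _a_at suffixes Rab3a was at 0.38, Rab2a at -0.14 and Rab14 at -0.063. With array weights Rab10 was at -0.017 and Rabggta at -0.041. Without single arrays Rab10 ran from -0.079 to 0.18, Rab21 from -0.28 to 0.54, Rab2a from -0.012 to 0.26, Rab40c from -0.058 to 0.57, Rab7 from -0.065 to 0.17, Rab8b from -0.30 to 0.022, Rabac1 from -0.20 to 1.33 and Rabggta from -0.0030 to 0.42. The cause was not tested.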
